A study of Saccharomyces cerevisiae with 3 samples.

Results

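Peroxisomes are organelles in which Saccharomyces cerevisiae breaks down fatty acids, since yeast mitochondria carry out no beta-oxidation. The PEX genes encode peroxins, the proteins that insert peroxisomal membrane proteins, import folded enzymes from the cytosol and set the size and number of the organelles. A second group of genes encodes the enzymes, transporters and transcription factors of fatty acid oxidation. In textbook accounts glucose represses many of the oxidation genes and oleate induces them through Oaf1, Pip2 and Adr1. Both groups were followed here in cells exposed to fluazinam, an agricultural fungicide known as an uncoupler of oxidative phosphorylation. Members were taken by name: every gene with a PEX symbol and 20 named oxidation genes. Of 49 genes that meet this rule in a reference gene table, 43 had a probe with their symbol, out of 5203 named genes on the array. They comprised 14 oxidation enzymes, 24 PEX genes, 3 transporters and 2 transcription factors. The others, among them PEX5 and OAF1, were not analysed here.

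The treated cells were strain S288C in exponential growth in YPD, a rich medium with glucose, at 25 C, given 1.5 uM fluazinam in 100 ml cultures for 2 h. The untreated cells were the same strain, grown on for 2 h with no addition. PolyA RNA of the pair was compared on 3 two-colour arrays, called independent biological samples in the design text, with treated cDNA in Cy5 and untreated cDNA in Cy3 on each, so that a dye effect on a gene and the treatment cannot be told apart. Nothing states that the untreated RNAs came from separate cultures, so p-values measure only the spread between these arrays. The deposited log ratios were taken to be log2 values, treated over untreated. Neither base nor direction was stated; the direction is likely, from the channel order, and the opposite one would turn every sign below.

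Values were present for 4463, 5245 and 4865 of 6272 probes on replicates 1, 2 and 3, and no spot intensities were given. Features with a value on all 3 arrays, 3802 in all, were tested with limma against a log2 ratio of 0, at an adjusted p of 0.05 after Benjamini-Hochberg adjustment over all of them. Of these, 7.86% passed in either direction, 3.39% higher and 4.47% lower in treated cells. No feature with a mean smaller than 1.07 in size passed. Oxidation enzymes were read less completely than most genes: 5 of 14 had a value on all 3 arrays (35.7%), against 14 of 24 PEX genes (58.3%) and 68.7% of all named genes. Why a probe had no value was not stated. The probe numbers appear to define 32 sub-grids of the array, and sub-grid medians ran from -0.91 to 0.57 over the arrays, so several members are also given with the median of their sub-grid subtracted. The 5 enzymes and 14 PEX genes tested therefore do not stand for their whole groups.

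The thiolase gene POT1 rose 3.02-fold in treated cells (the mean log2 ratio turned back into a ratio), and it was the only member of either group past the threshold. The enzyme genes FOX2, TES1 and YAT2 were above 0 on all 3 arrays without passing, and MDH3 had mixed signs. None of the 14 tested PEX genes passed in the limma test, where 7.86% of all features did. Of the PEX means, 11 lay above 0, and PEX7, PEX32 and PEX3 were below 0 on all arrays. With sub-grid medians subtracted, PEX3 turned to 0.24, and PEX7 and PEX32 were at -0.13 and -0.32. The median of the mean log2 ratios was 0.83 over the 5 enzymes and 0.44 over the 14 PEX genes, beside -0.01 over all tested features.

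**Figure D1:**
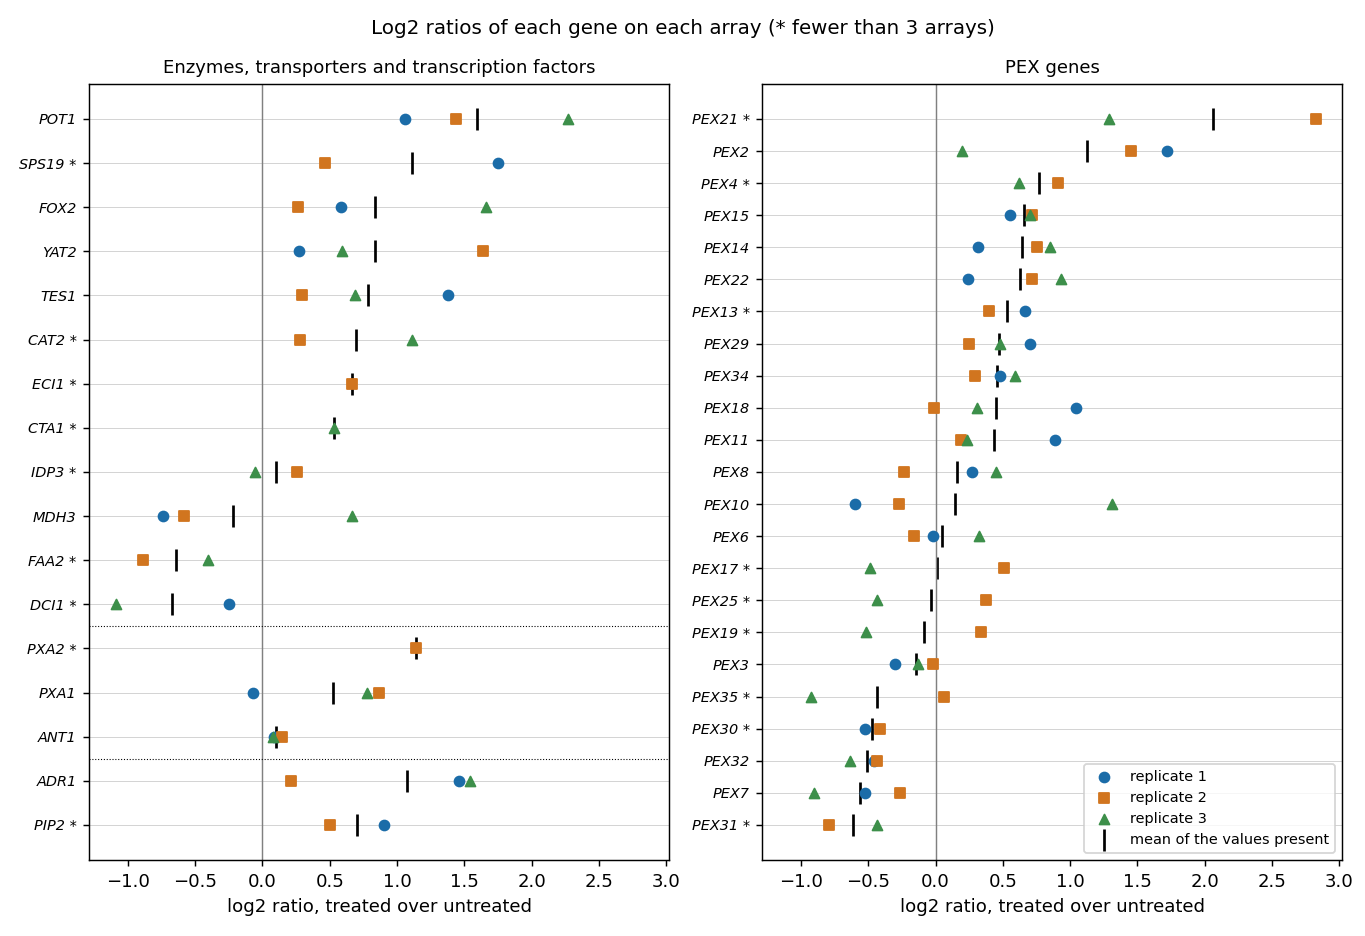
Log2 ratio of treated over untreated cells (horizontal axis) for each of the 40 genes with at least 1 value, one symbol per array, with a bar at the mean of the values present. Left: enzymes, then transporters and transcription factors below the dotted lines. Right: PEX genes. POT1 lies above 1 on all 3 arrays, and PEX30, PEX31 and PEX32 lie below 0 wherever they were measured.

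Beta-oxidation shortens an acyl-CoA by a cycle of reactions that ends with thiolysis. POT1 (YIL160C) encodes the thiolase of that last step. Its log2 ratios were 1.06, 1.44 and 2.27 on replicates 1 to 3. All were above 0 and the highest was on replicate 3. The mean was 1.59 ± 0.62 (SD, n = 3; 95% interval 0.85 to 2.33), with an adjusted p of 0.0343 in limma. Only 3.39% of all tested features passed in this direction. POT1 no longer passed without replicate 1 (mean 1.86, adjusted p = 0.0814) or without replicate 3 (1.25, adjusted p = 0.0968), with 11 and 0 features passing in all, and it passed without replicate 2 (1.67, adjusted p = 0.00586), where 657 features did.

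The step before thiolysis is carried out by the multifunctional enzyme of FOX2 (YKR009C), a hydratase and dehydrogenase. FOX2 had log2 ratios of 0.58, 0.26 and 1.66, again highest on replicate 3. Its mean of 0.84 ± 0.73 (SD, n = 3) did not pass, with an adjusted p of 0.149 and a 95% interval of 0.04 to 1.63. Without replicate 3 the mean was 0.42. FAA2, a fatty acyl-CoA synthetase that activates medium-chain fatty acids, had -0.88 and -0.40 on replicates 2 and 3 and no value on replicate 1. Both of its values were below 0, unlike those of POT1 and FOX2. The medians of its sub-grid on these arrays were -0.11 and -0.78, so its value on replicate 3 lay above its sub-grid median. POX1, the acyl-CoA oxidase that catalyses the first and committed step, was on the array but had no value on any replicate, so its level in treated cells is not known from these data. The 4 genes of the core pathway were thus read to different degrees, and no statement on the pathway as a unit can be made from them.

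TES1 (YJR019C), a peroxisomal acyl-CoA thioesterase, had log2 ratios of 1.38, 0.29 and 0.69. All 3 were above 0, with replicate 2 the lowest, and the mean of 0.79 ± 0.55 (SD, n = 3) did not pass (adjusted p = 0.137). The peroxisomal malate dehydrogenase gene MDH3 (YDL078C), whose product reoxidises NADH inside the organelle, had -0.74, -0.58 and 0.67. Replicates 1 and 2 lay below 0 and replicate 3 above it, and the mean of -0.22 ± 0.77 (SD, n = 3) had an adjusted p of 0.708. Without replicate 1 its mean was 0.04, so the sign rests on that array.

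The remaining auxiliary enzymes were read on 1 or 2 arrays and were not tested. SPS19, a dienoyl-CoA reductase needed for some unsaturated fatty acids, had 1.75 and 0.47 on replicates 1 and 2. DCI1, an enoyl-CoA isomerase family member, had -0.25 and -1.09 on replicates 1 and 3, and both values were below 0. ECI1, the enoyl-CoA isomerase for unsaturated fatty acids, had a single value of 0.67 on replicate 2. For CTA1, the peroxisomal catalase that removes the hydrogen peroxide made by acyl-CoA oxidase, the only value was 0.53 on replicate 3. IDP3, the peroxisomal NADP-dependent isocitrate dehydrogenase that supplies NADPH to the reductase, had 0.26 and -0.05 on replicates 2 and 3. Enzymes for unsaturated fatty acids were thus seen on both sides of 0, none of them on all arrays.

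Acetyl units leave the peroxisome partly as acetylcarnitine. YAT2 (YER024W), a cytosolic carnitine acetyltransferase, had log2 ratios of 0.27, 1.64 and 0.59. The value on replicate 2 stood above the other two, a different array from that of the highest FOX2 and POT1 values. Its mean of 0.83 ± 0.72 (SD, n = 3) had an adjusted p of 0.147 and did not pass. Without replicate 2 the mean was 0.43. CAT2, the acetyltransferase of peroxisomes and mitochondria, had 0.28 and 1.11 on replicates 2 and 3, and YAT1, of the outer mitochondrial membrane, had no value on any array. At an unadjusted p of 0.05, 4 of the 5 tested enzymes passed (POT1, FOX2, TES1 and YAT2), beside 29.7% of all features.

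PXA1 and PXA2 encode the half-transporters of the peroxisomal importer for long-chain acyl-CoA. PXA1 (YPL147W) had -0.07, 0.87 and 0.78 on replicates 1 to 3, with replicate 1 apart from the other two, and a mean of 0.52 ± 0.52 (SD, n = 3; adjusted p = 0.283). PXA2 had 1.14 on replicate 2 and no other value. ANT1 (YPR128C), the peroxisomal adenine nucleotide carrier that brings in ATP for fatty acid activation, had 0.09, 0.15 and 0.08. The 3 arrays lay closer together for ANT1 than for nearly all features, with an SD of 0.04 at the 0.66th percentile of all SDs. Its mean of 0.10 had a 95% interval of -0.49 to 0.69, wider than its own SD would give because the test moderates the spread over all features, and an adjusted p of 0.811. With sub-grid medians subtracted the mean turned to -0.17.

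Among the transcription factors, ADR1 (YDR216W), a zinc finger activator needed for growth on oleate and other carbon sources when glucose is gone, had log2 ratios of 1.46, 0.21 and 1.54. Replicates 1 and 3 were similar and replicate 2 was near 0. The mean was 1.07 ± 0.75 (SD, n = 3; 95% interval 0.27 to 1.87) and did not pass (adjusted p = 0.0918). Without replicate 2 the mean was 1.50 with an adjusted p of 0.00849, among 657 features that passed there. ADR1 had 2 probes, whose deposited values were identical on every array, so they do not give a second measurement. PIP2, which binds oleate response elements as a partner of Oaf1, had 0.90 and 0.50 on replicates 1 and 2.

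**Figure D2:**
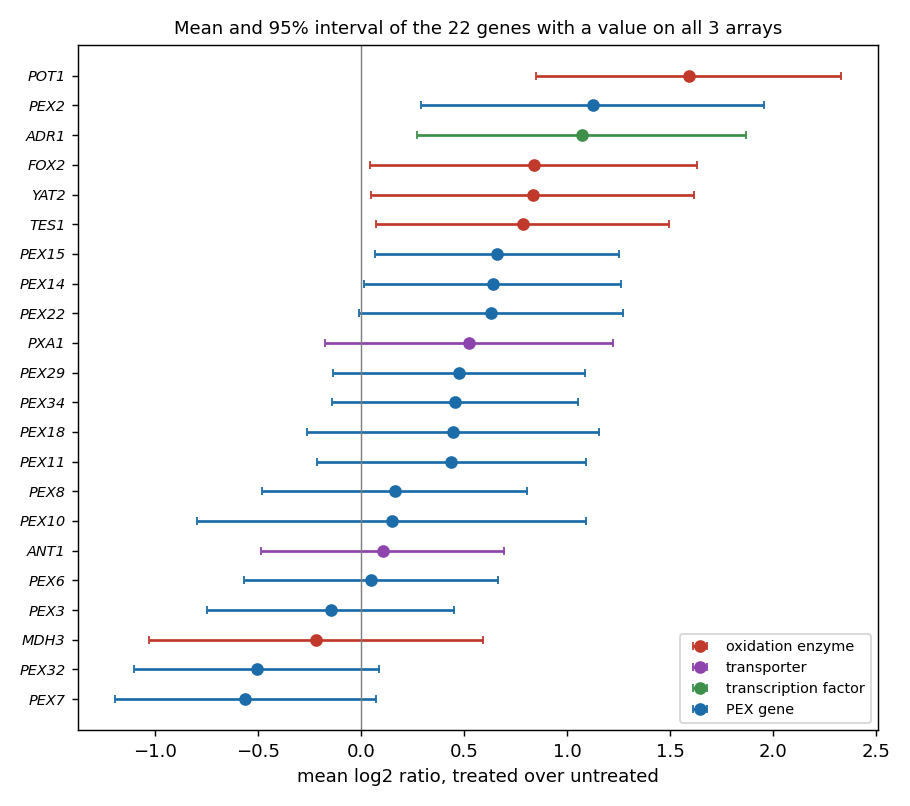
Mean log2 ratio of treated over untreated cells (points) with its 95% interval from limma (bars), for the 22 genes with a value on all 3 arrays, ordered by mean and coloured by group. The means run from 1.59 for POT1 at the top to -0.56 for PEX7 at the bottom, and most intervals include 0.

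Import of matrix enzymes begins with receptors that read a targeting signal in the cytosol. POT1 is the classic cargo of the receptor Pex7, which works with the co-receptors Pex18 and Pex21 on enzymes that carry an N-terminal signal. PEX7 (YDR142C) had log2 ratios of -0.52, -0.26 and -0.90, below 0 on every array. It had the lowest mean of the tested members, -0.56 ± 0.32 (SD, n = 3; 95% interval -1.20 to 0.07), with an adjusted p of 0.213. The medians of its sub-grid were -0.48, -0.22 and -0.58, close to its own values, and with them subtracted its mean was -0.13 and no longer the lowest. PEX18 (YHR160C) had 1.05, -0.01 and 0.31, with replicate 1 above the others, and a mean of 0.45 ± 0.54 (SD, n = 3; adjusted p = 0.358). PEX21 had the largest value of any member, 2.83 on replicate 2, with 1.29 on replicate 3 and none on replicate 1. In the fit that admits features with values on 2 arrays, PEX21 had a mean of 2.06 and an adjusted p of 0.0664, beside 4.8% of features called there. The receptor and its co-receptors thus had values on opposite sides of 0, and none passed. PEX9, an import receptor of narrow range, had no value.

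Docking of loaded receptors at the membrane takes place on Pex13, Pex14 and Pex17, and Pex8 acts inside the organelle. PEX14 (YGL153W) had 0.32, 0.75 and 0.85, all above 0, with a mean of 0.64 ± 0.28 (SD, n = 3; adjusted p = 0.160). After sub-grid medians were subtracted, PEX14 had a mean of 0.98 and passed in limma (adjusted p = 0.0429). It was the only PEX gene among 391 features that passed there, against 299 without the subtraction. PEX13 had 0.66 and 0.40 on replicates 1 and 2. PEX17 had 0.51 and -0.49 on replicates 2 and 3, on either side of 0. Both values lay above the medians of its sub-grid there, -0.11 and -0.78. PEX8 had a mean of 0.16 ± 0.35 (SD, n = 3; adjusted p = 0.727) with replicate 2 below 0.

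Receptors are ubiquitinated by a complex of RING ligases before they are reused. PEX2 (YJL210W), one of these ligases, had log2 ratios of 1.72, 1.46 and 0.19. Replicate 3 was far below the other two, and the mean of 1.12 ± 0.82 (SD, n = 3) was the largest of the tested PEX genes but did not pass (adjusted p = 0.0913). With sub-grid medians subtracted the mean of PEX2 was 0.84, below that of PEX14 at 0.98. PEX10 (YDR265W), another ligase of the complex, went the other way across arrays, with -0.60, -0.27 and 1.31. Its SD of 1.02 was larger than that of any other tested member, at the 92.0th percentile of all features, and the mean of 0.15 had an adjusted p of 0.833. Without replicate 3 its mean was -0.43. The 2 ligases had opposite orders of arrays, with replicate 3 lowest for PEX2 and highest for PEX10. Their sub-grid medians ran in the same orders, 0.50, 0.31 and 0.04 for PEX2 and -0.80, -0.40 and 0.39 for PEX10. Each PEX10 value lay above its sub-grid median. With these medians subtracted the mean of PEX10 was 0.42 and did not pass (adjusted p = 0.313 in limma).

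Return of receptors to the cytosol needs the ubiquitin-conjugating enzyme Pex4 with its anchor Pex22, and the ATPase Pex6 with its anchor Pex15. Both anchors and PEX4 had values above 0 on every array read. PEX15 (YOL044W) had 0.56, 0.72 and 0.70, with a mean of 0.66 ± 0.09 (SD, n = 3; 95% interval 0.07 to 1.25; adjusted p = 0.135) and an SD at the 3.52nd percentile of all features. PEX22 (YAL055W) had 0.24, 0.72 and 0.93, with a mean of 0.63 ± 0.36 (SD, n = 3; adjusted p = 0.177). PEX4 had 0.91 and 0.62 on replicates 2 and 3. PEX6 (YNL329C) stayed near 0 with -0.02, -0.16 and 0.32, a mean of 0.05 ± 0.25 (SD, n = 3) and an adjusted p of 0.925. The ATPase gene and the gene of its anchor had overlapping intervals, and their difference was not tested.

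Membrane proteins are inserted with the help of Pex3 and its partner Pex19. PEX3 (YDR329C) had -0.30, -0.02 and -0.13, with a mean of -0.15 ± 0.14 (SD, n = 3; 95% interval -0.75 to 0.45; adjusted p = 0.730). Its sub-grid had lower medians, -0.32, -0.41 and -0.44, and with them subtracted the mean turned to 0.24. PEX19 had 0.34 and -0.52 on replicates 2 and 3. No value of either gene reached 1 in size.

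Size and number of peroxisomes are set by Pex11, Pex25, Pex27 and Pex34 and by a family that includes Pex28 to Pex32. PEX11 (YOL147C), the main elongation factor, had 0.89, 0.19 and 0.23, all above 0, with a mean of 0.44 ± 0.39 (SD, n = 3; adjusted p = 0.332). PEX34 and PEX29 were also above 0 on all 3 arrays, with means of 0.46 ± 0.15 and 0.47 ± 0.23 (SD, n = 3), and neither passed. PEX25 had 0.38 and -0.44 on replicates 2 and 3. PEX35 had 0.06 and -0.92 on the same arrays. The related genes PEX30, PEX31 and PEX32 were below 0 in all 7 of their values, which ran from -0.79 to -0.42. Of these, PEX32 (YBR168W) was read on all arrays, at -0.46, -0.44 and -0.63, and its mean of -0.51 ± 0.11 (SD, n = 3) had a 95% interval of -1.10 to 0.09 and an adjusted p of 0.231. The sub-grid medians of PEX30 on its 2 arrays were -0.48 and -0.40, close to its values of -0.53 and -0.42. Those of PEX32 were -0.24, -0.17 and -0.15, and with them subtracted its mean was -0.32. For PEX31 the medians were 0.02 and 0.18 on replicates 2 and 3, beside values of -0.79 and -0.43. PEX29, of the same family, lay on the other side of 0, with 0.70, 0.25 and 0.48. Its sub-grid medians were 0.57, 0.07 and -0.04, and with them subtracted its mean was 0.27.

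**Figure D3:**
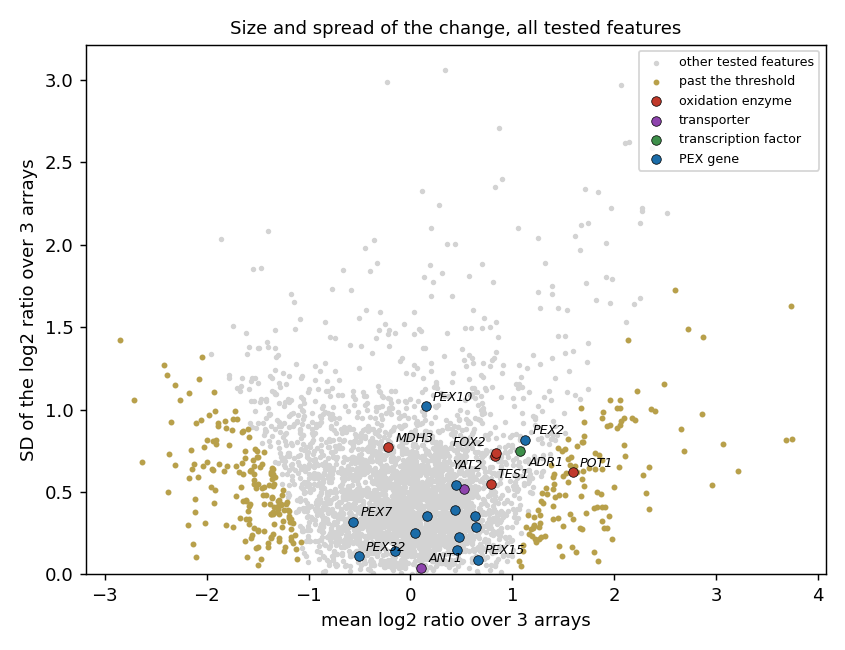
Mean log2 ratio over the 3 arrays (horizontal axis) against its SD over the arrays (vertical axis) for all 3802 tested features. Features past the threshold are in gold, and the 22 tested members are large points coloured by group. POT1 is the only member past the threshold, and ANT1 and PEX15 have SDs of 0.04 and 0.09.

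Set beside each other array by array, the oxidation enzymes had the higher median each time. On the 5 enzymes and 14 PEX genes read on all arrays, the medians were 0.58 and 0.29 on replicate 1, 0.29 and 0.09 on replicate 2, and 0.69 and 0.39 on replicate 3. The difference of enzymes minus PEX genes was 0.29, 0.20 and 0.30, with a mean of 0.26 ± 0.05 (SD, n = 3), and was not tested because the members were chosen with results of these arrays known. It shrank on replicate 2 to 0.04 when every member with a value on that array was used, 10 enzymes with a median of 0.28 and 23 PEX genes with a median of 0.25. Taken between medians of the gene means, the difference was 0.39. The single genes overlapped throughout: enzyme means ran from -0.22 to 1.59, and PEX means from -0.56 to 1.12. Spread between arrays also differed, with a median SD of 0.72 over the enzymes, 0.30 over the PEX genes and 0.46 over all tested features.

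**Figure D4:**
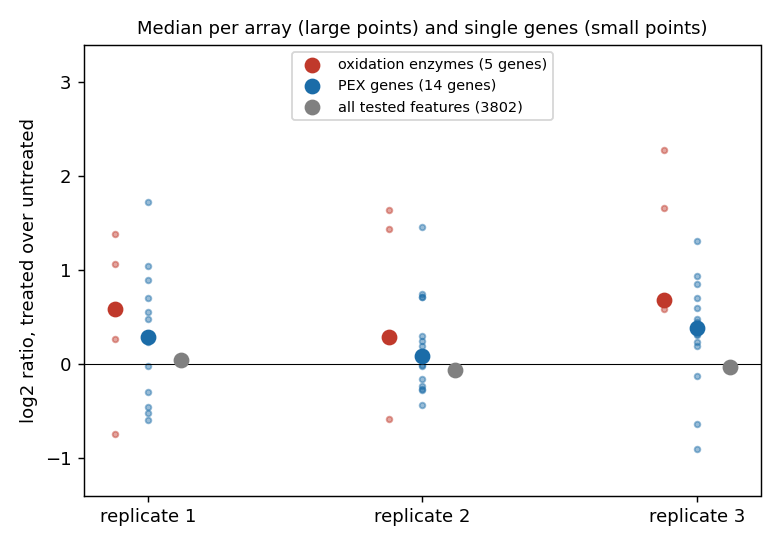
Log2 ratio of treated over untreated cells on each array. Large points are medians of the 5 oxidation enzymes, the 14 PEX genes and all 3802 tested features, and small points are single genes. The enzyme median lies above the PEX median on all 3 arrays by 0.20 to 0.30, within the scatter of the single genes.

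In counts, 4 of the 5 tested enzymes and 7 of the 14 PEX genes were above 0 on all 3 arrays, no enzyme and 3 PEX genes were below 0 on all 3, and 1 enzyme and 4 PEX genes had mixed signs. One sign on all arrays was seen for 72.7% of the 22 tested members and for 52.3% of all tested features. At an unadjusted p of 0.05, PEX2, PEX14 and PEX15 passed, 21.4% of the 14 PEX genes, a smaller share than the 29.7% of all features. The count of PEX genes past the threshold was also 0 with no moderation, where 1 feature passed in all. It was 0 with robust moderation too, where 399 features passed. Across the 22 tested members, Pearson correlations between arrays were 0.53 for replicates 1 and 2, 0.37 for replicates 1 and 3 and 0.40 for replicates 2 and 3. Over all features they were 0.51, 0.63 and 0.43. These are across genes read on shared arrays and are given as a description.

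Position on the array moved with some of these values. POT1, FOX2, PXA1 and a probe of ADR1 shared a sub-grid, with medians of 0.34, 0.12 and 0.26 on replicates 1 to 3, all above 0. With sub-grid medians subtracted, POT1 had a mean of 1.36 and still passed in limma (adjusted p = 0.0383), where 391 features did. The PEX median was 0.28 and the enzyme median exceeded it by 0.61. FOX2 then had a lower mean of 0.60 (adjusted p = 0.235 in limma). ADR1 had one of 0.86, averaged over its 2 probes, which lay in different sub-grids. PXA1 had a mean of 0.29, PEX15 of 0.39 and PEX18 of 0.17, while YAT2 had 1.22 (adjusted p = 0.0561).

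Genes that work with peroxisomal oxidation but carry other names gave further values. They were grouped in lists that were chosen with earlier results of these data known. Counts in these lists, set beside shares of all features, are therefore descriptions and not tests. Among 8 genes of the carnitine shuttle and acetyl-unit use, 5 were tested and 2 rose, beside 3.39% of all features, with a list median of 1.20. CRC1 (YOR100C), the carrier that takes acetylcarnitine into mitochondria, had log2 ratios of 2.21, 1.56 and 1.87, high on all arrays, with a mean of 1.88 ± 0.32 (SD, n = 3; adjusted p = 0.0253). AGP2 (YBR132C), a plasma membrane protein needed for carnitine uptake, had 2.63, 1.19 and 1.63, with a mean of 1.82 ± 0.74 (SD, n = 3; adjusted p = 0.0302). Neither passed without replicate 1 (adjusted p = 0.0814 for CRC1 and 0.0975 for AGP2) or without replicate 3 (0.0601 and 0.0698).

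Among 18 other peroxisomal proteins on the array, 15 were tested and CIT2 alone rose, beside 3.39% of all features. CIT2 (YCR005C), the peroxisomal citrate synthase that condenses acetyl units made there, had 1.89, 1.37 and 1.80, with a mean of 1.69 ± 0.28 (SD, n = 3; adjusted p = 0.0265). It did not pass without replicate 1 (0.0818) or without replicate 3 (0.0677). The list median was 0.31, with 8 means above 0 and 7 below. One of its members, LYS4, encodes an enzyme better known from mitochondria. GPD1, a glycerol phosphate dehydrogenase that also enters through Pex7, had a mean of 0.88 ± 0.32 (SD, n = 3; adjusted p = 0.0861).

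No gene of fission, inheritance and turnover passed among 6 tested, in a list with a median of 0.07, and 1 had an unadjusted p under 0.05, beside 7.86% and 29.7% of all features. Its largest mean in size was that of MYO2, the myosin that carries organelles into the bud, at -1.30 ± 0.80 (SD, n = 3; adjusted p = 0.0660). Of 4 tested Adr1 targets outside the peroxisome none passed, 2 had an unadjusted p under 0.05, against the same background, and the median was 0.86. ADH5, an alcohol dehydrogenase, had the largest mean of that list at 1.45 ± 1.44 (SD, n = 3; adjusted p = 0.112). Among 9 tested regulators of carbon source and stress responses, with a median of 0.09, TUP1 alone passed, beside 4.47% of all features lower. TUP1 (YCR084C), a general corepressor that acts in glucose repression, fell with -1.84, -1.51 and -0.72, a mean of -1.36 ± 0.58 (SD, n = 3; adjusted p = 0.0434). It did not pass without replicate 1 (mean -1.11, adjusted p = 0.187) or without replicate 3 (-1.68, 0.0652), nor when features with values on 2 arrays were admitted (adjusted p = 0.0551). Its partner CYC8 had a mean of -0.47 ± 0.36 (SD, n = 3; adjusted p = 0.292).

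**Figure D5:**
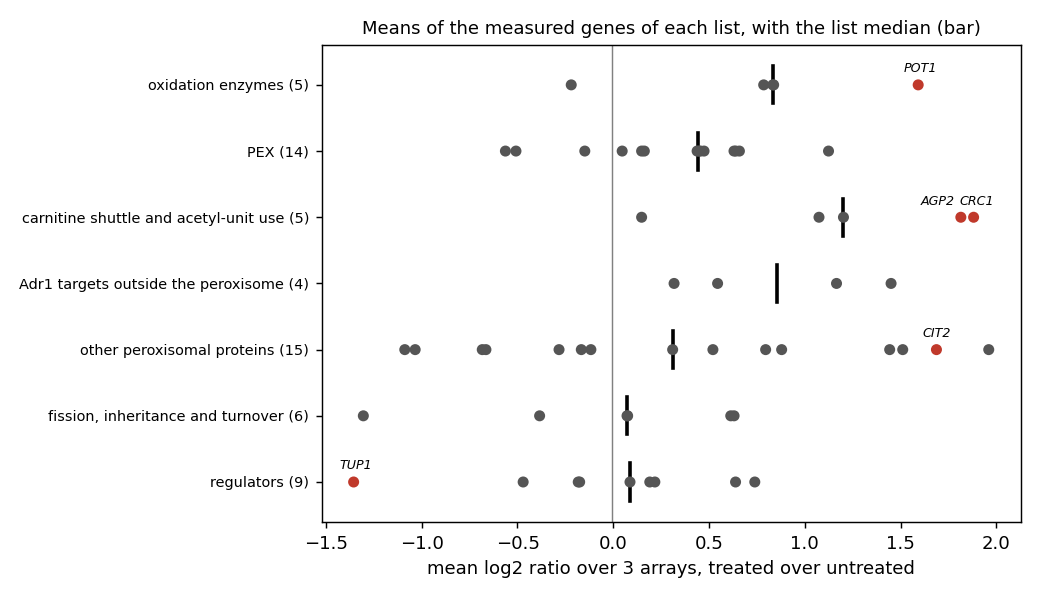
Mean log2 ratio of treated over untreated cells (horizontal axis) for every gene with a value on all 3 arrays in each list, with the list's median as a bar and the number of genes in brackets. Red points with names passed the threshold: POT1, CRC1, AGP2 and CIT2 higher and TUP1 lower in treated cells.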

How the data were processed

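The authors deposited 1 log ratio for each probe and array, read here as log2. Per the labels, spots flagged 0 went into the LOWESS normalization. Log base, direction, scanner and background correction are not given in the sources used here. Replicate spots appear to have been merged before deposit: of 88 genes with several probes, 65 had identical values on all of them.

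Probes were named through the platform annotation. All 43 members matched the R64 reference gene table by Entrez identifier, and probes of a gene were averaged. Features read on all 3 arrays were fitted with an intercept in limma 3.58.1 (R 4.3.3, lmFit and eBayes, 5.10 prior degrees of freedom), which was tested on simulated data. The members and lists were chosen with earlier results of these data known. Every member is named; of each related list, members past the threshold or otherwise the one with the largest absolute mean, and GPD1, CYC8, LYS4 and the genes under other observations were added after their values were seen. Planned promoter and protein sequence features were not used here.

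Alternatives were array centring, array scaling, quantile normalization, sub-grid centring, leaving out each array, values on at least 2 arrays, the first listed probe, robust or no moderation, array weights, an adjusted p of 0.01 and other member sets.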

Additional observations from a re-analysis of the deposited data

How the results depend on the processing

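The values below limit what the arrays show. POT1, CRC1, AGP2 and CIT2 stayed higher and TUP1 lower in treated cells under every alternative run, while their calls did not hold throughout. Between 0 and 657 features passed with 1 array left out (0 to 278 higher, 0 to 379 lower), against 299 with all arrays, 1 (1 higher and 0 lower) with no moderation, and 0 at an adjusted p of 0.01. Oxidation enzymes past the threshold were 0 to 1 with 1 array left out, 0 with no moderation and 0 at 0.01. The only alternative to call a PEX gene was sub-grid centring, with 1 among 391 features. The PEX median was 0.28 with sub-grid centring, 0.16 with values on at least 2 arrays, and 0.29 to 0.55 with 1 array left out. The enzyme median minus the PEX median, taken over gene means, was 0.39 in the main fit. It was 0.61 with sub-grid centring, 0.58 with values on at least 2 arrays and 0.48 with means over genes. With 1 array left out it ran from 0.41 to 0.68. The mean of the differences on single arrays was 0.26, and 0.22 with each array's own members. Signs turned for ANT1 (-0.17), PEX3 (0.24) and PEX6 (-0.048) with sub-grid centring. With 1 array left out they turned for MDH3 (0.041 without replicate 1, range -0.66 to 0.041), PEX10 (-0.43 without replicate 3, range -0.43 to 0.52) and PEX6 (-0.091 without replicate 3, range -0.091 to 0.15). Leaving out an array also removes a degree of freedom, and other causes were not tested. No further pairing was added, because each log ratio already sets a treated sample against the untreated sample on the same array. Counting identical unnamed probes once, each array's own members, and the enzymes without POT1 (median 0.81) were chosen after seeing the data.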

Other observations

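ATG1, the kinase that starts autophagy, had log2 ratios of 2.35 and 1.85 on replicates 2 and 3, and the lactate permease gene JEN1, a target of Adr1, had 0.52 and 2.16 on the same arrays. IDP2, the cytosolic NADP-dependent isocitrate dehydrogenase, had 1.75 and 1.25 on replicates 1 and 2. MIG1, the repressor through which glucose acts on many genes, had 0.60 and 1.09 on replicates 2 and 3. None of these genes was read on all 3 arrays. STR3, a peroxisomal cystathionine beta-lyase, had 0.74, 3.83 and 1.31, and LYS1, the last enzyme of lysine synthesis and a peroxisomal protein, had 0.73, 3.29 and 0.31. Both had their highest value on replicate 2, and neither passed in limma (adjusted p = 0.0762 and 0.137). All genes of this paragraph were chosen after their values were seen.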
